A study of Mus musculus with 6 samples.

Results

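The 9 genes described here encode core parts of the phosphoinositide 3-kinase (PI3K), AKT and mTOR pathway: Pik3cd, Pik3r1, Pik3ap1, Inpp5d, Akt1, Tsc1, Tsc2, Mtor and Rptor. They were taken by gene symbol from a table of 19680 genes, and all 9 were found. RNA sequencing measured their transcripts in B cells of the germinal center (GC), a site in lymphoid tissue where B cells divide, mutate their antibody genes and are selected for binding. These cells were sorted from C57BL/6 mouse spleen as B220+ CD38- FAS+ cells on day 14 after 100 µg of the hapten-protein antigen NP-CGG had been injected intraperitoneally, in mice aged 6 to 8 weeks. The 3 cKO libraries came from Senp1flox/flox Cγ1-Cre mice, in which Senp1 is deleted by a Cre that is active in B cells transcribing the Cγ1 antibody locus. The 3 WT libraries came from Senp1flox/flox mice, immunized likewise, whose genotype lists no Cre, so an effect of Cre itself cannot be told apart from that of the deletion. Both groups carry the floxed allele, and GC B cells that never expressed Cre may remain in the cKO sort. The labels call the WT and cKO mice paired without saying how or which library belongs with which. Whether every library is its own mouse is not labelled, and the p-values reflect only how these libraries vary, which may be technical. SENP1 is an enzyme that cleaves the modifier SUMO off other proteins, and the comparison asks which transcripts differ in GC B cells when it is deleted.

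As background, PI3K at the B cell membrane phosphorylates an inositol lipid to PIP3 after antigen or coreceptor binding, and PIP3 recruits AKT and BTK. AKT inactivates FOXO transcription factors and the TSC1-TSC2 complex, and loss of TSC activity frees RHEB to switch on mTOR complex 1, which drives protein synthesis and growth. In GC B cells the pathway is held in check for much of the cycle, which keeps FOXO1 active in the dark zone, and it is raised in light zone cells that receive T cell help. Much of its control acts on phosphorylation, which RNA levels do not measure.

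Senp1 had 373, 425 and 398 normalized counts in cKO libraries 1 to 3, against 915, 868 and 891 in WT libraries 1 to 3. The groups did not overlap, and the log2 fold change (cKO over WT) was -1.16 ± 0.12 (SE) and limma gave an adjusted p of 0.111 among 14678 genes. Reads assigned to genes numbered 9657005, 3019152 and 3082897 in cKO libraries 1 to 3, against 10339054, 5160902 and 6528052 in WT libraries 1 to 3. Replicate 1 was thus the deepest library of each group, and cKO replicates 2 and 3 were the shallowest of all. Replicate 1 of both groups lay apart on the first principal component, at -27.2 in cKO and -31.2 in WT, against 0.64 to 23.2 in the other 4 libraries. Mitochondrial genes took 3.66%, 12.3% and 19.1% of reads in cKO libraries 1 to 3, against 2.71%, 7.92% and 9.83% in WT libraries 1 to 3. The 2 highest shares were in cKO, the groups overlapped, and the part of these shares in the results was not tested. All 6 listed B cell markers were read in each library, and their sum was 34877 to 41519 in cKO and 33898 to 40271 in WT. The summed 6 GC B cell markers reached 9190 to 16921 in cKO and 14106 to 20305 in WT. Replicate 2 of cKO held 795 normalized counts of 6 T cell markers, against 32.7 to 167 in the other 5 libraries, and 8395 of 5 naive B cell markers, against 2237 to 5184. It was also highest in 5 plasma cell markers, at 16063 against 7121 to 12944 in the others. The sum of 7 macrophage markers was 292 to 448 in cKO, highest in replicate 2, and 108 to 296 in WT.

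None of the 9 genes was called between the genotypes. By limma 0 passed an adjusted p of 0.05 over all genes, and 0 had an unadjusted p under 0.05; edgeR, DESeq2 and limma-voom on recovered reads also called 0 of the 9. Over all genes limma called 0 in either direction (0% of 14678), with 438 higher (2.98%) and 318 lower (2.17%) at an unadjusted p under 0.05 (756 in all, 5.15%), while edgeR and limma-voom called 0 and DESeq2 19. The log2 fold change was negative for 6 of the 9 genes, where 50.2% of all genes were negative, and positive for 3, where 49.8% were positive, with a median of -0.066, where the median over all tested genes was -0.0019. The 95% confidence intervals ran from -0.70, the lower bound for Akt1, to 0.53, the upper bound for Pik3cd. On the fold scale those bounds are 0.615 and 1.44, and the intervals of the 9 genes lie within them. Separate groups were found for 2 of the 9, Tsc1 and Tsc2, both lower in cKO. Among all genes tested 5.28% had all cKO values below all WT values, and 11.6% did not overlap in either direction.

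**Figure D1:**
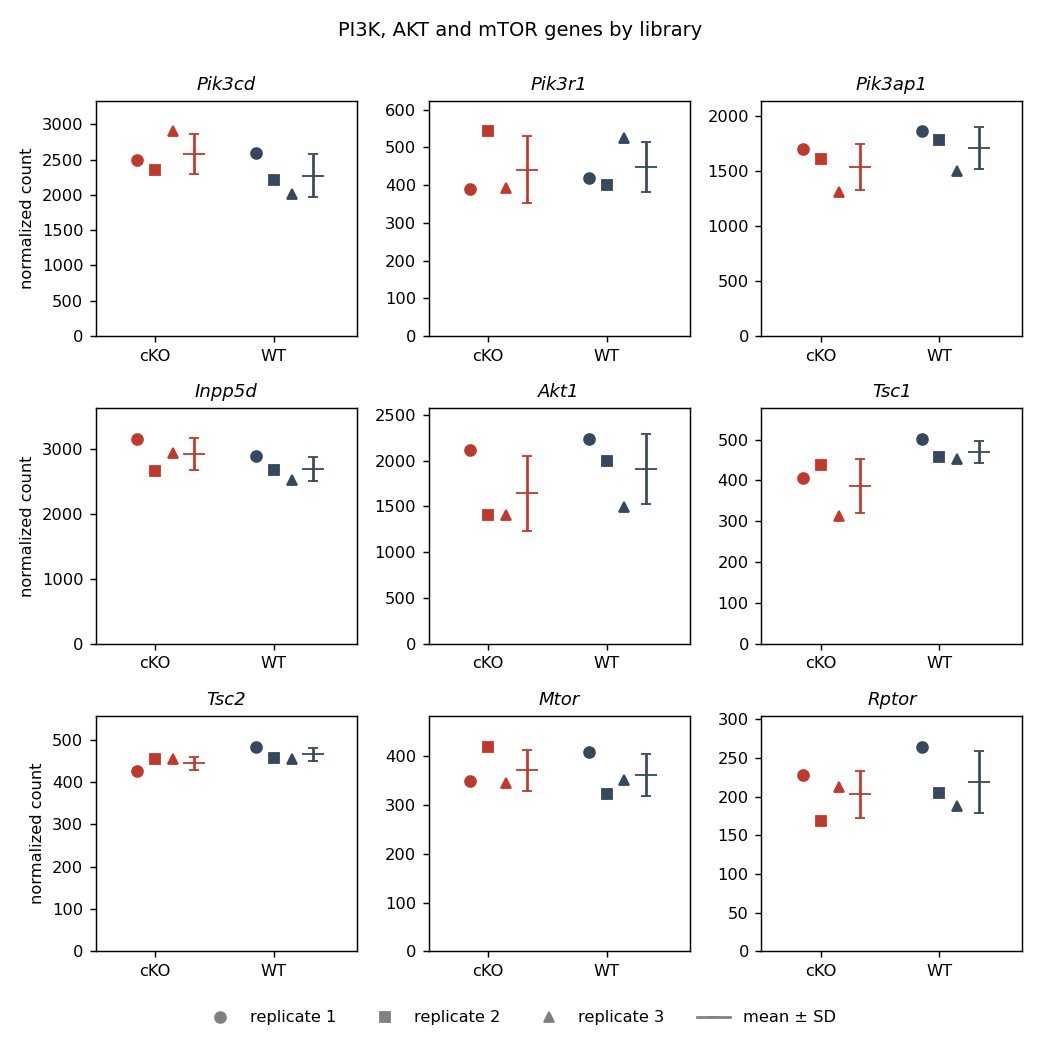
Normalized counts (vertical axes, starting at 0) of the 9 genes in the 3 cKO and 3 WT libraries, with symbols for the replicate number and a bar for the mean ± SD of each group. The groups overlap in 7 panels, while Tsc1 and Tsc2 have all cKO values below all WT values, Tsc2 by less than the worth of a single read.

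Pik3cd (chr4:149649168-149702571, minus strand; gene span in GENCODE M21, GRCm38) encodes the catalytic subunit delta of class I PI3K, the form that signals from the B cell receptor. It had 2500, 2354 and 2903 normalized counts in the cKO libraries, against 2600, 2212 and 2011 in the WT libraries. The highest library was cKO replicate 3 and the lowest WT replicate 3, and the groups overlapped. The mean was 2585 ± 284 in cKO and 2274 ± 299 in WT (SD, n = 3 each), a log2 fold change of 0.19 ± 0.15 (SE) with a limma adjusted p of 0.930. The log2 difference was -0.056 between the replicate 1 libraries, which are 1 per group, and 0.31 between the libraries of replicates 2 and 3.

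Pik3r1 (chr13:101680563-101768217, minus strand) encodes regulatory subunits that stabilize the catalytic subunit, keep it inactive at rest and bind phosphorylated YxxM motifs. It had 389, 543 and 392.2 normalized counts in cKO, against 420, 400.3 and 524 in WT. The 2 highest libraries were cKO replicate 2 and WT replicate 3, and the other 4 lay between 389 and 420. On the log2 scale the fold change was -0.030 ± 0.18 (SE; limma adjusted p = 0.993), with no steady sign when single libraries were left out (-0.19 to 0.088). The library with the highest Pik3r1 also had the most T cell and naive B cell marker RNA, and the part of those cells in the Pik3r1 value was not tested.

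Class I catalytic subunits were compared per kb of exon, using normalized counts divided by the length of all annotated exons. In every library Pik3cd was the highest of the 4 catalytic genes, at 413 ± 45.4 normalized counts per kb in cKO and 363 ± 47.8 in WT. Its share of the summed catalytic level was 78.3%, 75.3% and 83.0% in the cKO libraries, against 73.0%, 70.3% and 68.6% in the WT libraries. The share was higher in all 3 cKO libraries, and the exact permutation p (two-sided) was 0.1, the smallest that 3 against 3 can give, and 0.420 after Benjamini-Hochberg adjustment over 21 such values. The sum itself overlapped, at 523 ± 31.6 per kb in cKO and 513 ± 51.1 in WT. Pik3cg, the gamma subunit, took 10.4%, 9.48% and 5.30% in cKO, against 14.3%, 15.4% and 14.4% in WT.

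Pik3cg and Pik3cb, the beta subunit, were the 2 catalytic genes with the smallest unadjusted p. Pik3cg had 446, 399 and 249 normalized counts in cKO, against 687, 650.5 and 568 in WT. Its log2 fold change was -0.84 ± 0.22 (SE; limma adjusted p = 0.915), and it stayed negative in all 20 alternative fits, between -1.004 and -0.59. Pik3cb was scarce, with 21.1, 19.0 and 16.3 normalized counts in cKO, against 71.3, 67.1 and 35.0 in WT. Behind the cKO values stood 39, 10 and 8 reads. Its log2 fold change was -1.51 ± 0.36 (SE; limma adjusted p = 0.915) and lay between -1.83 and -1.33 in the alternatives. Both genes were lower in every cKO library, and neither passed the adjustment over all genes in any fit (smallest adjusted p of 0.0896 for Pik3cg and 0.198 for Pik3cb). Pik3ca, the alpha subunit, averaged 579 ± 82.4 normalized counts in cKO and 603 ± 64.7 in WT, which is less than the SD of either group.

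**Figure D2:**
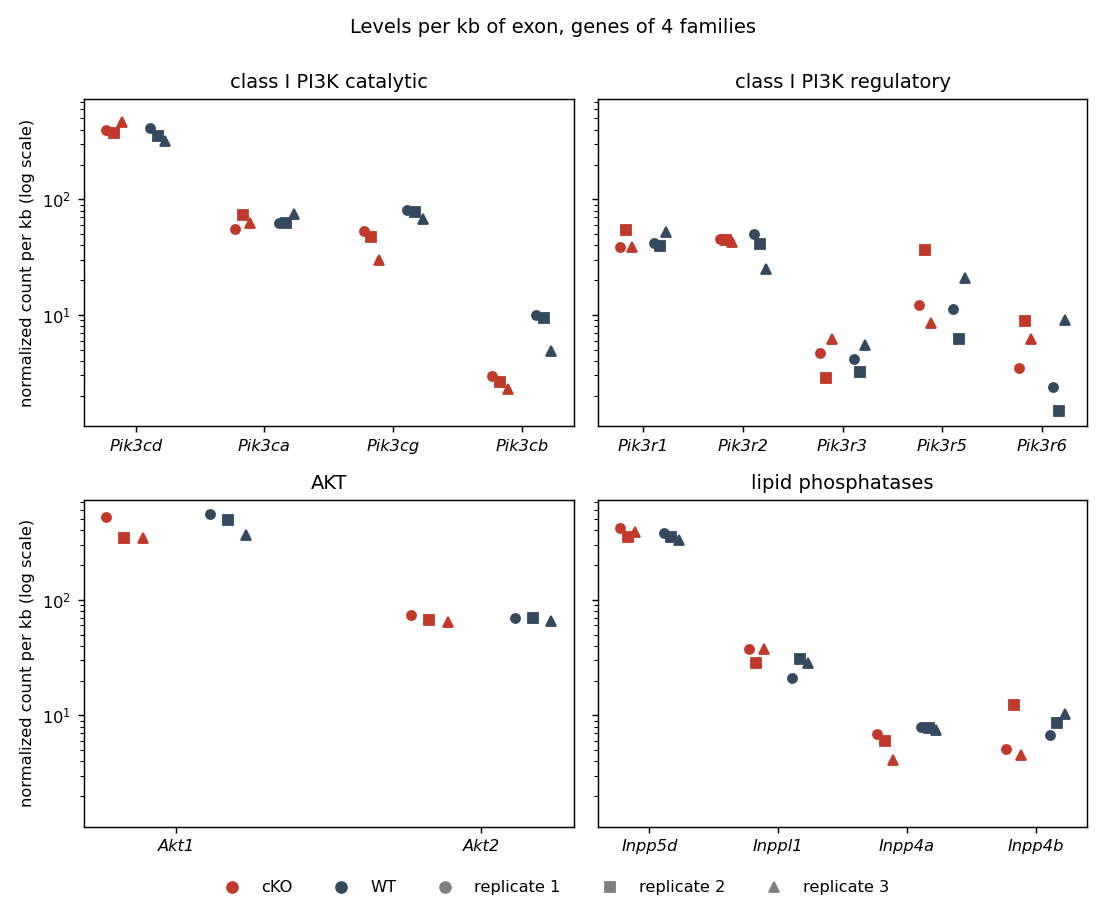
Normalized counts per kb of exon (vertical axes, log scale) of genes from 4 families in cKO (red) and WT (dark) libraries, with symbols for the replicate number. Pik3cd, Akt1 and Inpp5d lie highest of the genes in their panels in every library, and Pik3cg and Pik3cb are lower in all cKO libraries than in all WT libraries.

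Among the regulatory genes, Pik3r1 and Pik3r2 held most of the level per kb. The Pik3r1 share was 36.9%, 36.9% and 38.0% in cKO, against 38.2%, 43.5% and 46.3% in WT, with groups that did not overlap (exact two-sided permutation p = 0.1, adjusted 0.420). The Pik3r1 level itself overlapped between the groups, as given above. Pik3r5, a regulatory partner of the gamma subunit, had 67.2, 201 and 47.0 normalized counts in cKO, against 62.2, 34.1 and 115 in WT. Its highest value was in cKO replicate 2, the library with the most T cell marker RNA. Pik3r2 had 190.3, 184 and 178 in cKO, against 208, 170.3 and 104 in WT. Pik3r3 and Pik3r6 were scarcer, with 15.2 to 32.7 and 12.5 to 32.3 normalized counts in cKO, against 17.0 to 29.0 and 5.32 to 32.5 in WT.

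Pik3ap1 (chr19:41272377-41385102, minus strand), also called BCAP, is an adaptor that, once phosphorylated, recruits PI3K to the activated B cell receptor. It had 1699, 1610 and 1307 normalized counts in cKO, against 1864, 1781 and 1500 in WT. The lowest library was cKO replicate 3 and the 2 highest were WT replicates 1 and 2, and the groups overlapped. The mean was 1539 ± 205 in cKO and 1715 ± 191 in WT, with a log2 fold change of -0.16 ± 0.15 (SE; limma adjusted p = 0.933). Without cKO replicate 3 it was -0.046, and without WT replicate 3 it was -0.25.

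Cd81, a tetraspanin of the B cell surface, was lower in every cKO library, with 611, 539 and 535 normalized counts in cKO, against 728, 656 and 661 in WT. Its log2 fold change was -0.28 ± 0.13 (SE; limma adjusted p = 0.915). Plekha2, whose protein binds a lipid made from PIP3, had 2787.3, 2223 and 2032 in cKO, against 3182, 2901 and 2787.65 in WT. Its groups were separate, but cKO replicate 1 lay below WT replicate 3 by less than the worth of a single read.

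Inpp5d (chr1:87620312-87720507, plus strand) encodes SHIP1, the phosphatase that removes the 5-phosphate from PIP3 and acts below inhibitory receptors of B cells. It had 3148, 2657 and 2937 normalized counts in cKO, against 2879, 2663 and 2510 in WT. Its level was the steadiest of the 4 abundant genes, and the groups overlapped through cKO replicate 2. The mean was 2914 ± 246 in cKO and 2684 ± 185 in WT. The log2 fold change was 0.12 ± 0.13 (SE; limma adjusted p = 0.942), with 0.13 within replicate 1 and 0.11 within replicates 2 and 3. It was 0.060 without cKO replicate 1 and 0.18 without cKO replicate 2.

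Inpp4a and Inppl1, which also encode lipid phosphatases, were scarcer than Inpp5d. Inpp4a, which acts on the lipid that SHIP1 makes, had 71.0, 62.6 and 42.9 normalized counts in cKO, against 82.9, 80.9 and 76.9 in WT. Inppl1 (SHIP2) had 239, 180 and 239 in cKO, against 134, 196 and 181 in WT, and shares 18.8% of its exon bases with a gene on the opposite strand, whose reads cannot be told apart where counting ignores strand.

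Akt1 (chr12:112653821-112674884, minus strand) encodes a kinase that PIP3 recruits to the membrane. It had 2111, 1408 and 1405 normalized counts in cKO, against 2236, 1992 and 1492 in WT. Replicate 1 was highest in both groups, cKO replicates 2 and 3 and WT replicate 3 were lowest, and the groups overlapped. The mean was 1642 ± 407 in cKO and 1907 ± 379 in WT, with a log2 fold change of -0.22 ± 0.21 (SE; limma adjusted p = 0.933). Without cKO replicate 1 it was -0.42, and without WT replicate 1 it was -0.098. Akt1 had the widest interval of the 9 genes, -0.70 to 0.26.

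Per kb, Akt1 stood at 6.98, 5.16 and 5.297 times Akt2 in cKO, against 7.85, 6.96 and 5.55 times in WT, and these ratios overlapped. Akt2 had 527, 475 and 462 normalized counts in cKO and 496, 498 and 468 in WT, and its log2 fold change was -0.0014 ± 0.13 (SE; limma adjusted p = 0.999). Pdpk1, the kinase PDK1 that activates AKT at the membrane, was lower in every cKO library, with 551, 520.1 and 562 normalized counts in cKO, against 659, 722 and 691 in WT. Its log2 fold change was -0.34 ± 0.12 (SE; limma adjusted p = 0.915). Phlpp2, a phosphatase that acts on AKT, had 260.3, 232 and 210.4 in cKO, against 233, 300.2 and 283 in WT.

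**Figure D3:**
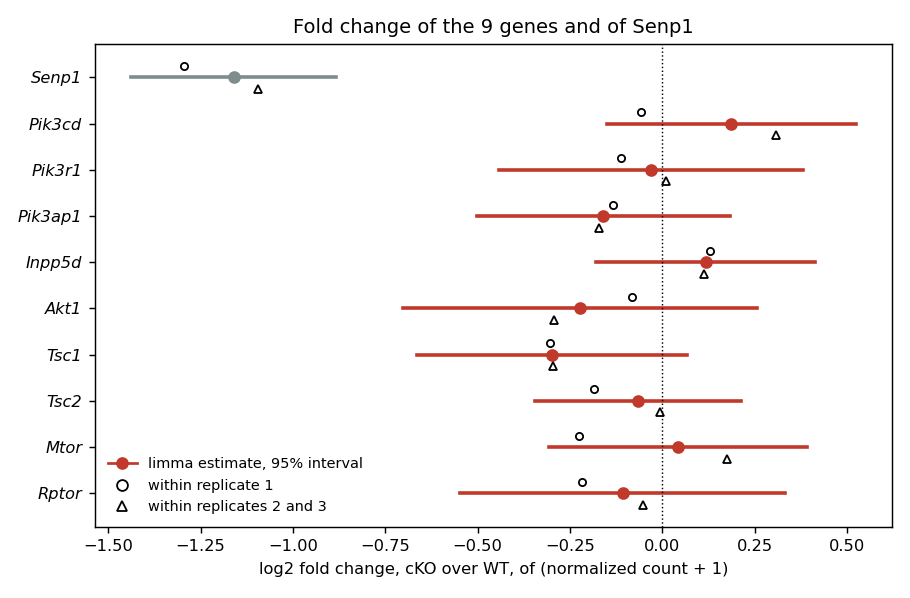
Log2 fold change of normalized count + 1, cKO over WT (horizontal axis), with limma's 95% interval, for Senp1 (grey) and the 9 genes (red), beside the difference within replicate 1 (open circles) and within replicates 2 and 3 (open triangles). The interval of Senp1 lies below 0, and each of the 9 genes has an interval that includes 0.

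The AKT substrate Foxo1, a transcription factor that AKT excludes from the nucleus, had 1027, 1148 and 1085 normalized counts in cKO, against 1192, 1338 and 1521 in WT. The groups did not overlap, and the log2 fold change was -0.31 ± 0.13 (SE; limma adjusted p = 0.915). Gsk3b, a kinase that AKT inhibits, had 372, 372 and 362 in cKO, against 418, 443 and 510.0 in WT, also without overlap. Foxo3 overlapped, at 92.7, 218 and 121 in cKO and 100.1, 100.1 and 142 in WT.

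Tsc1 (chr2:28641228-28691167, plus strand) encodes hamartin, the scaffold that stabilizes tuberin, and it had the smallest p among the 9 genes. It had 406, 438 and 313 normalized counts in cKO, against 501, 458 and 452 in WT. All 3 cKO libraries were below all WT libraries, by the widest margin in cKO replicate 3. The mean was 386 ± 65.4 in cKO and 470.4 ± 27.1 in WT. On the log2 scale the fold change was -0.30 ± 0.16 (SE; limma adjusted p = 0.915), and 1539 genes had a smaller p. It was -0.30 within replicate 1 and -0.30 within replicates 2 and 3, but -0.15 without cKO replicate 3 and -0.40 without cKO replicate 2. In cKO replicate 3 Tsc1 rested on 153 reads, which alone gives a counting error of 8.08%.

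Tsc2 (chr17:24595816-24632630, minus strand) encodes tuberin, which turns RHEB off. It had 425.7, 453.62 and 453.45 normalized counts in cKO, against 483.8, 457.8 and 453.64 in WT. Its SD was the smallest of the 9 genes, at 444 ± 16.1 in cKO and 465 ± 16.3 in WT. The groups were separate, but cKO replicate 2 lay below WT replicate 3 by less than the worth of a single read. The log2 fold change was -0.066 ± 0.12 (SE; limma adjusted p = 0.968), with a 95% interval of -0.34 to 0.21. Tsc2 shares 7.20% of its exon bases with Pkd1, on the opposite strand, which measured 199.6, 440.3 and 366 in cKO and 224, 235 and 303 in WT. Reads from the shared bases cannot be told apart where counting ignores strand.

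Per kb, Tsc1 stood at 0.776, 0.786 and 0.560 of Tsc2 in cKO, against 0.843, 0.813 and 0.810 in WT. The ratio was lower in all cKO libraries, and lowest in cKO replicate 3. It takes in the Tsc1 values given above, and the other gene ratios formed here overlapped between the groups. Rheb, the switch under TSC control, had 226, 158 and 212 normalized counts in cKO, against 245, 229 and 219 in WT. The groups overlapped, since cKO replicate 1 lay above WT replicate 3. Rhebl1, a relative of Rheb, was scarce but higher in every cKO library, with 28.7, 22.8 and 32.7 normalized counts in cKO, against 16.7, 21.3 and 11.96 in WT (limma adjusted p = 0.915). It shares 18.0% of its exon bases with Dhh on the same strand, so its reads are uncertain. Over the 6 libraries, the 3 genes whose log2 deviations from their own mean were most like those of Tsc1 were Lrrc8d, Tmem50b and Ankfy1. The candidates were 6868 other genes with a mean of at least 100 normalized counts, leaving out Gm names, Rik names and bare identifiers. The root mean square differences of Lrrc8d, Tmem50b and Ankfy1 from Tsc1 were 0.0363, 0.0455 and 0.0552 log2 units.

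The promoter windows of Tsc1 and Tsc2, the pair whose groups did not overlap, are printed beside that of Inpp5d, a gene largely confined to blood cells, because they differ in CpG content. Each window runs from 250 bases before to 50 after the RefSeq start on GRCm38.p6, 5′ to 3′ on the gene's strand, and capitals mark CpG dinucleotides. They lie at chr1:87620062-87620361 on the plus strand (Inpp5d), chr2:28640983-28641282 on the plus strand (Tsc1) and chr17:24632578-24632877 on the minus strand (Tsc2).
Inpp5d: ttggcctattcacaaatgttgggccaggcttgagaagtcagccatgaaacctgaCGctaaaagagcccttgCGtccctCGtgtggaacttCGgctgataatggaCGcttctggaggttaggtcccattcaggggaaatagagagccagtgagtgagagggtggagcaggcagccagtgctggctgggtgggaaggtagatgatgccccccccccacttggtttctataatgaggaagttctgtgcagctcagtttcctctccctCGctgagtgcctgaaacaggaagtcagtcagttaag
Tsc1: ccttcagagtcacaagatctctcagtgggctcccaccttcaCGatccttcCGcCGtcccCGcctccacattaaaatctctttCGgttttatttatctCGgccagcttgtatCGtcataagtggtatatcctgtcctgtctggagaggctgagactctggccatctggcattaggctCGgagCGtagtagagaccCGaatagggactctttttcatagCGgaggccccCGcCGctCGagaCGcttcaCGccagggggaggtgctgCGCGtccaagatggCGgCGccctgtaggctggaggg
Tsc2: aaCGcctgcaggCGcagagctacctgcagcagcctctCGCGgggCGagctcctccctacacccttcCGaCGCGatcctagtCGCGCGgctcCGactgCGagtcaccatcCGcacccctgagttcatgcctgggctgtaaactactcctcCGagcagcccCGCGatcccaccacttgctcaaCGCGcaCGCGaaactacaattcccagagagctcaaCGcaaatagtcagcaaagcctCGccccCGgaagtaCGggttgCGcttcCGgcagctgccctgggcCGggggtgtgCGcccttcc

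Tsc2 held 29 CpG and Tsc1 20, against 6 in Inpp5d and a median of 7 over 32851 promoter windows of the same length. In the other genes, the richest window held 42 CpG in Akt1, 34 in Pik3r1 and 26 each in Pik3cd and Pik3ap1. Mtor had 21 and Rptor 13, while the other windows of Akt1, Pik3r1 and Pik3cd held 4 to 8. A high count was thus not particular to Tsc1 and Tsc2. RefSeq gave 13 windows for the 9 genes, each gene with at least 1. The GC box GGGCGG was found, on either strand, in a window of 4 of the 9 genes (Pik3cd, Pik3r1, Akt1 and Mtor) and in 35.7% of all windows. The ETS core CCGGAA was found in Tsc2 and Mtor and in 14.9% of all windows. The FOXO motif GTAAACA was found in 1 window of Akt1 and in 3.65% of all windows, and the E-box CACGTG in Pik3ap1 and in 7.15%. Each motif was counted on its own, and matches of different motifs may overlap. A gene with more than 1 window has more chances of a match, so counts of genes and shares of windows are not in like units. Mtor and Pik3cd both lie on chromosome 4, with 1.09 Mb between them, and the other 7 genes lie on separate chromosomes.

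Mtor (chr4:148448611-148557683, plus strand) encodes the kinase shared by both mTOR complexes. It had 349, 419 and 345 normalized counts in cKO, against 407, 323 and 351 in WT. The highest libraries were cKO replicate 2 and WT replicate 1, and the groups overlapped. The mean was 371 ± 41.9 in cKO and 360.4 ± 43.2 in WT, with a log2 fold change of 0.043 ± 0.15 (SE; limma adjusted p = 0.984), which turned to -0.036 with library totals alone. The difference was -0.22 between the replicate 1 libraries, which are 1 per group, and 0.18 between the libraries of replicates 2 and 3.

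Rptor (chr11:119602905-119899576, plus strand) encodes raptor, which brings substrates to mTOR complex 1. It had 228, 169 and 212 normalized counts in cKO, against 265, 205 and 188 in WT. Replicate 1 was highest in both groups and cKO replicate 2 lowest of all, resting on 89 reads with a counting error of 10.6%. On the log2 scale the fold change was -0.11 ± 0.19 (SE; limma adjusted p = 0.967), and the groups overlapped. Per kb, Rptor stood at 0.490, 0.302 and 0.462 of Mtor in cKO, against 0.488, 0.478 and 0.402 in WT. Rictor, the matching subunit of mTOR complex 2, had 241, 364 and 323 normalized counts in cKO, against 256, 326 and 409 in WT, and was lowest in replicate 1 of both groups, where Rptor was highest.

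Akt1s1 encodes PRAS40, an inhibitor of mTOR complex 1 that AKT phosphorylates, and was higher in every cKO library. It had 59.7, 75.9 and 89.9 normalized counts in cKO, against 52.1, 42.6 and 43.6 in WT. The log2 fold change was 0.68 ± 0.25 (SE; limma adjusted p = 0.915), and it was 0.19 within replicate 1 and 0.92 within replicates 2 and 3. It shares 2.90% of its exon bases with Tbc1d17 on the opposite strand. Mapkap1, a subunit of mTOR complex 2, overlapped, with 300.4, 271 and 196 in cKO, against 330, 284 and 272 in WT.

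By level per kb the 9 genes fell into 2 tiers that did not overlap in any library. In the upper tier were Akt1 (401 ± 99.2 in cKO and 465 ± 92.5 in WT), Pik3cd, Inpp5d (383 ± 32.4 and 353 ± 24.4) and Pik3ap1 (276 ± 36.9 and 308 ± 34.2). The order of the first 3 was not fixed, since Akt1 exceeded Pik3cd in 4 of 6 libraries and Pik3cd exceeded Inpp5d in 4 of 6. In the lower tier were Tsc2 (46.2 ± 1.67 and 48.3 ± 1.699), Pik3r1 (43.8 ± 8.73 and 44.5 ± 6.58), Mtor (36.7 ± 4.15 and 35.65 ± 4.27) and Tsc1 (32.6 ± 5.53 and 39.8 ± 2.29). Rptor was lowest in every library, at 15.1 ± 2.27 and 16.3 ± 2.99, and Mtor exceeded Tsc1 in 3 of 6 libraries. In each of these pairs the cKO value comes first and n is 3 libraries per group.

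The 9 genes also varied with the replicate number. Replicate 1 was the deepest library of each group, and the part of depth in this was not tested. In 7 of the 9 the mean of replicate 1 was above that of the other libraries on the log2 scale, with a median difference of 0.14, where the median over all genes was 0.0089 and 50.9% of genes were positive. The median log2 deviation of the 9 genes was 0.051, -0.0059 and -0.077 in cKO and 0.16, -0.025 and -0.11 in WT, so the groups overlapped. In bulk RNA, fewer cells of a type and less RNA per cell cannot be told apart.

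The wider pathway was described through 12 lists of genes ordered by role, with 124 genes, of which 120 were tested. By limma 0 of the 120 passed the adjusted test, as by edgeR, DESeq2 and limma-voom, and 6 had an unadjusted p under 0.05 (5%, where all genes gave 5.15%). Of these, Pik3cb, Pik3cg, Pdpk1 and Foxo1 were lower in cKO, and Akt1s1 and Nprl2 higher. On the log2 scale the fold change was positive for 61 and negative for 59, with a median of 0.0045. The groups did not overlap for 12 genes lower in cKO (10%, where all genes gave 5.28%) and 5 higher (4.17%, where all genes gave 6.28%). Among the lower genes, Tsc2 and Plekha2 were separate by less than the worth of a single read. Among the higher ones, Rhebl1 was separate by less than a single read of cKO replicate 2.

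**Figure D4:**
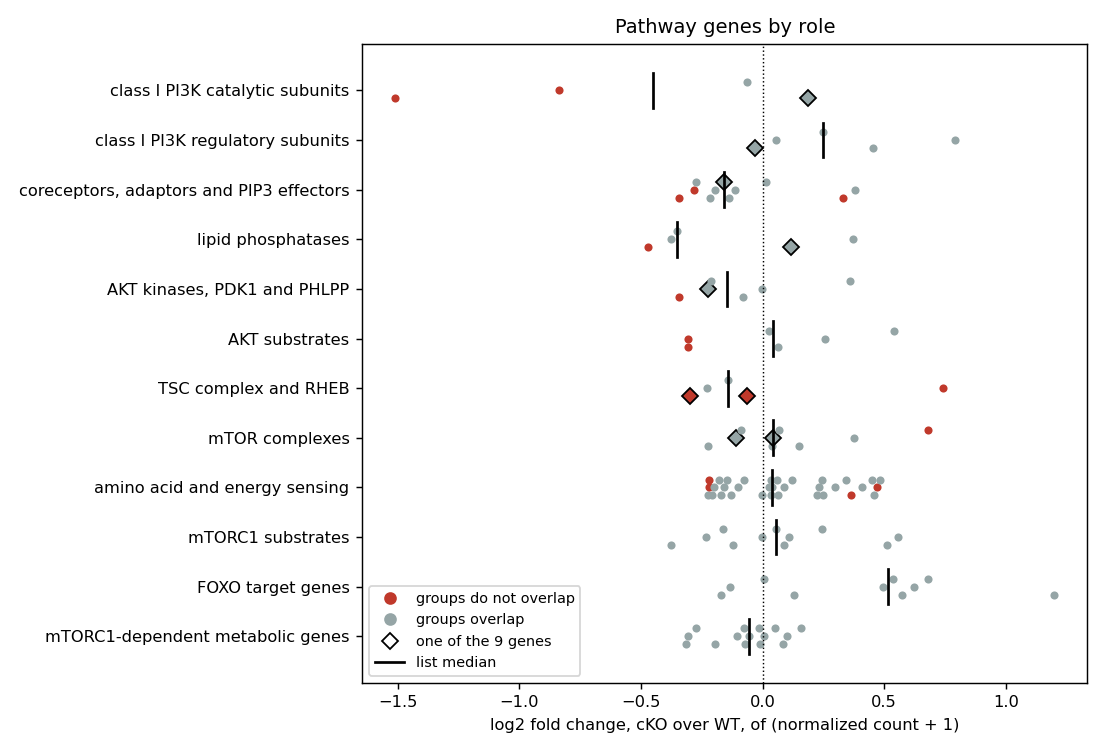
Log2 fold change of normalized count + 1, cKO over WT (horizontal axis), of 120 pathway genes in 12 role lists (rows), with diamonds for the 9 genes, red where the groups do not overlap and a black bar at each list's median. The lowest points are Pik3cb and Pik3cg in the catalytic list, and FOXO targets have the highest median, 0.52.

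Amino acid and energy sensors upstream of mTOR complex 1 had 20 of 33 tested genes with positive and 13 with negative log2 fold changes (median 0.038). Nprl2, a subunit of the GATOR1 complex that turns mTOR complex 1 off, had 106, 121 and 121 normalized counts in cKO, against 85.9, 73.5 and 91.4 in WT. Flcn, folliculin, which acts on the Rag GTPases, had 257, 262 and 353 in cKO, against 234, 202 and 236 in WT. Both were higher in every cKO library, with limma adjusted p of 0.915.

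Substrates of mTOR complex 1 had a median of 0.054 over 11 tested genes, with no gene whose groups were separate. Rps6kb2, an S6 kinase, had 205, 287 and 355 normalized counts in cKO, against 190.1, 232 and 162 in WT, and shares 23.7% of its exon bases with Ptprcap on the opposite strand. Eif4ebp1, the translation repressor that mTOR inactivates, had 79.2, 49.3 and 57.2 in cKO, against 99.6, 67.1 and 74.3 in WT. Metabolic genes that depend on mTOR complex 1 had 5 positive and 10 negative values among 15 tested (median -0.056). Psat1, of serine synthesis, had 1115, 628 and 1007 in cKO, against 1325, 1141 and 901 in WT.

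FOXO target genes had the highest list median, 0.52, with 8 positive and 2 negative values among 10 tested. Klf2, a factor that keeps lymphocytes quiescent, had 163, 626 and 355 normalized counts in cKO, against 82.9, 130 and 274 in WT, with a log2 fold change of 1.20 ± 0.53 (SE; limma adjusted p = 0.915). Ccnd2, a cyclin, had 216, 492 and 396 in cKO, against 252, 201 and 296 in WT. None of the 10 had separate groups. Both Klf2 and Ccnd2 were highest in cKO replicate 2, which also held the most T cell and naive B cell marker RNA. Without that library Klf2 measured 0.74 and Ccnd2 0.25, and the part of other cells was not tested.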

How the data were processed

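RNA sequencing of sorted GC B cells gave 6 libraries, 3 cKO and 3 WT. The deposited table holds a signal per gene, counts divided by size factors by the authors; per the submitters' processing notes TopHat2, HISAT2, HISAT, SAMtools, HTSeq and DESeq2 were used with build mm10, while the sources used here give neither strand setting nor annotation. The authors also deposited a log2 fold change, a test statistic (a score) and p-values per gene, which were not used for the results. Dividing by the worth of 1 read gave whole reads for 100% of values (tolerance 0.01).

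The main test was limma 3.58.1 (R 4.3.3) with a trend on log2(normalized count + 1), genotype alone, over 14678 genes with a mean of at least 1 normalized count, and Benjamini-Hochberg adjustment with a threshold of 0.05. Fold changes are on that log2 scale, which understates the change of low genes. edgeR 4.0.16, DESeq2 1.42.0 and limma-voom on recovered reads were among 20 alternatives. These fits and the main one were also run on simulated reads, which held no replicate effect beyond depth. That run therefore cannot show how the fits handle the replicate 1 difference seen here. Levels per kb use exon lengths of GENCODE M21. Counting errors cover counting alone, since the reads carry no molecular identifiers.

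Genes named beyond the 9 are Senp1, paralogs and partners listed by name, the 2 genes with the smallest p of each role list, and the 3 with patterns nearest to the gene of smallest p. Some of these are not reported here. The genes and lists were chosen with earlier results of these data known. Ratios between genes and isoform shares were added after the data were seen; the ratios carry no test, and the shares an exact permutation test over libraries with adjustment over 21 values.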

Additional observations from a re-analysis of the deposited data

How the results depend on the processing

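None of the 9 genes and none of the 120 pathway genes was called in any of the 20 alternatives. Senp1 stayed between -1.21 and -1.11 when single libraries were left out, and passed the threshold with DESeq2 (-1.17, adjusted p = 2.49e-09), with a limma term for replicate 1 (-1.16, adjusted p = 0.0160) and with that term but no cKO replicate 2 (-1.21, adjusted p = 0.0129). Over all genes, 19 were called by DESeq2, 3 with the term for replicate 1 and 13 with that term but no cKO replicate 2, against 0 in limma without it. Same-numbered libraries correlated at 0.823, 0.0408 and 0.386 in their deviations from the group means, so the numbers were not taken to pair them, although the labels call the mice paired, and the limma replicate block called 1 gene. cKO replicate 2 correlated best with WT replicate 3 (0.625). Mtor turned negative with library totals alone (-0.036) and with the term and cKO replicate 2 left out (-0.075), and Pik3r1 turned positive in replicates 2 and 3 alone (0.011). Tsc1 was lowest, at -0.44, with the term for replicate 1 but no cKO replicate 2 (limma unadjusted p = 0.00751, adjusted p = 0.349). Its limma unadjusted p was also under 0.05 without cKO replicate 2 and without the term (0.0465, adjusted p = 0.892). Leaving out single libraries gave Pik3cd 0.10 to 0.29, Pik3ap1 -0.25 to -0.046, Inpp5d 0.060 to 0.18, Akt1 -0.42 to -0.098, Tsc1 -0.40 to -0.15, Tsc2 -0.084 to -0.036, Mtor -0.048 to 0.13, Pik3r1 -0.19 to 0.088 and Rptor -0.21 to 0.036. The cause was not tested. Counting error was highest for Rptor (10.6% in cKO replicate 2), while the SE of the fold change was largest for Akt1 (0.21).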
